A study of Saccharomyces cerevisiae with 6 samples.

Results

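The genes described here are 10 genes of Saccharomyces cerevisiae for copper transport, copper chaperones and metallothioneins, chosen by name from a list of copper genes. They are the metallothionein genes CUP1-1, CUP1-2 and CRS5, the transporter genes CTR1, CTR2 and CTR3, the chaperone genes ATX1 and COX17, the copper pump gene CCC2 and the regulator gene MAC1. All 10 had a probe, each with 1 probe of its own, among 5365 named genes on the array. Of the 10, 8 had a value in all 3 replicates, while CTR3 and MAC1 had one in replicates 2 and 3 alone.

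Cells of strain S288C, in exponential growth in rich glucose medium at 25 °C, were given thorium at 5 mM for 2 h, and the untreated cells of each pair grew for the same time in the same medium without it. Both came from the same strain with no engineered allele named in the labels. Each of 3 hybridizations held an independent biological sample of each kind, with treated RNA in Cy5 and untreated RNA in Cy3, and no hybridization exchanged the dyes, so a dye bias of a probe cannot be told apart from an effect of thorium. Every array was read by the scanner with a strong and with a weak laser setting, called the high and low power scans, and the 2 scans of an array were averaged into 1 replicate. The series asks how thorium, an actinide metal, is chemically toxic to yeast.

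Copper is both a cofactor and a poison for yeast, and its handling is split into uptake, delivery and storage. Reductases of the cell surface reduce copper, the transporters Ctr1 and Ctr3 take it up, and chaperones hand it to its users, with Atx1 serving the Golgi pump Ccc2 and Cox17 serving cytochrome c oxidase. Metallothioneins, small proteins rich in cysteine, bind the surplus. When copper is scarce the activator Mac1 turns on the uptake genes, and when it is in excess the activator Cup2, also called Ace1, turns on the metallothionein genes and the superoxide dismutase gene SOD1.

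Values are log2 ratios of thorium over untreated, so that 1 stands for a doubling and 0 for no difference. The base of the logarithm and the direction are not stated with the values, and base 2 and Cy5 over Cy3 were assumed from the labels. A value above 0 is therefore likely more RNA in thorium. The ratios give no level, so the RNA of different genes is not compared here. How bright the spots were is not known from these ratios, and with 3 arrays the precision is low.

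Replicate 1 stood apart from the others before any copper gene was considered. Across 3613 genes with a value in all replicates, the log2 ratios correlated at 0.56 between replicates 2 and 3, at 0.09 between 1 and 2 and at 0.02 between 1 and 3 (Pearson's r across genes, which are not independent replicates). After each scan was centred on the median of its array section these values were 0.46, 0.32 and 0.25. The low power scan of replicate 1 also gave a value for the fewest probes, 40.2% of 6912, against 79.3% in the fullest scan. The means of the copper genes named below are therefore given with and without replicate 1. No gene of the 3613 passed limma's moderated test at an adjusted p under 0.05 (0%; smallest adjusted p = 0.271), and 499 had an unadjusted p under 0.05. With replicates 2 and 3 alone 77 of 4790 genes passed, which is 1.61%, 0.939% as higher and 0.668% as lower, and no copper transport or metallothionein gene was among them.

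**Figure D1:**
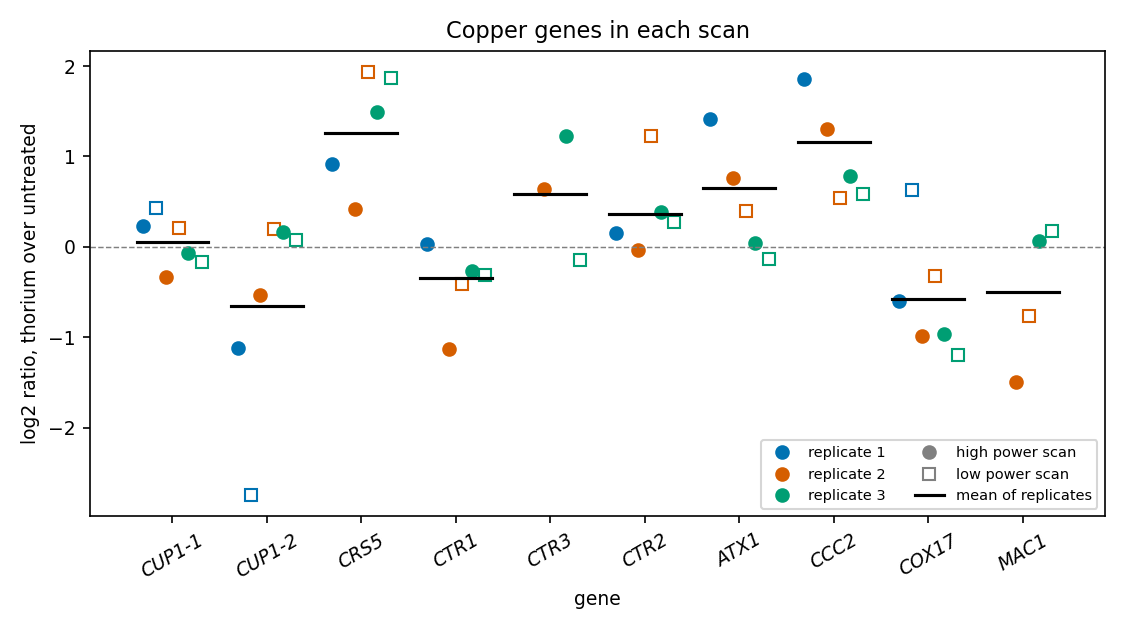
Log2 ratio of thorium over untreated (vertical axis) for the 10 genes (horizontal axis), with filled circles for high power scans, open squares for low power scans, a colour for each replicate and a bar for the mean of the replicates. CRS5 and CCC2 lie above 0 in each of their 5 scans, and the low power scan of replicate 1 puts CUP1-2 at -2.75, far from its other scans.

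As deposited, CRS5 was the highest among the metallothionein genes, and the CUP1 genes lay near or below 0. CRS5, which encodes a metallothionein with a smaller part in copper resistance than Cup1, read 0.91 in replicate 1, 1.18 in replicate 2 and 1.68 in replicate 3. All 3 replicates lay above 0, and so did all 5 scans that gave a value. The mean was 1.26 ± 0.39 (SD, n = 3) with a 95% interval of 0.54 to 1.97, the 65th highest of 3613 genes, and limma's adjusted p over all genes was 0.271. Without replicate 1 the mean was 1.43 and the adjusted p was 0.0560, so CRS5 did not pass in either case. The RefSeq gene table of assembly R64 lists CRS5 as a pseudogene in this strain, so the ratio is that of its RNA. The scans of CRS5 in replicate 2 differed widely, at 0.42 at high and 1.94 at low power.

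CUP1-1 and CUP1-2 are copies of the main copper-binding metallothionein gene, lie in a tandem repeat and encode the same protein, so each probe can bind RNA of both. CUP1-1 read 0.33, -0.06 and -0.12 in replicates 1, 2 and 3, with a mean of 0.05 ± 0.24 (SD, n = 3; limma, adjusted p = 0.947). Its 95% interval ran from -0.62 to 0.72. Its replicates lay on both sides of 0 and close together, with an SD larger than that of only 15.5% of genes. CUP1-2 read -1.93, -0.16 and 0.12, with a mean of -0.66 ± 1.11 (SD, n = 3; limma, adjusted p = 0.529). That SD exceeded the SD of 90.6% of genes, and it came from replicate 1. Without replicate 1 the means of the copies were -0.09 for CUP1-1 and -0.02 for CUP1-2.

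The copies differed mainly in replicate 1. There CUP1-1 exceeded CUP1-2 by 1.35 in the high power scan and by 3.17 in the low power scan. In replicate 2 the difference was 0.20 and 0.00, and in replicate 3 it was -0.23 and -0.25. The probes sit in different sections of the array, and in replicate 1 the section of CUP1-2 had a median of -0.94 and that of CUP1-1 a median of -0.01. After section-centring, replicate 1 still read -0.997 for CUP1-2 and 0.34 for CUP1-1.

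CRS5 exceeded each CUP1 copy in every replicate, by 0.59, 1.24 and 1.80 for CUP1-1 and by 2.84, 1.34 and 1.56 for CUP1-2. The mean difference was 1.21 ± 0.61 (SD, n = 3) against CUP1-1 and 1.92 ± 0.81 (SD, n = 3) against CUP1-2. An exact 2-sided sign-flip permutation test gave p = 0.25 for each, the smallest that 3 replicates allow, and 0.3 after Benjamini-Hochberg adjustment over the 6 pairs of genes compared. All 6 pairs were chosen after the values were seen, and the adjustment does not correct for that choice. After section-centring the difference from CUP1-1 was 0.50, with replicate 1 at -0.12 (exact permutation p = 0.5), and that from CUP1-2 was 1.02 (exact permutation p = 0.25).

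The transporter genes did not share a direction. CTR1, which encodes the main high-affinity copper transporter of the plasma membrane, read 0.03, -0.77 and -0.29 in replicates 1, 2 and 3. Its mean was -0.34 ± 0.40 (SD, n = 3; limma, adjusted p = 0.614), and without replicate 1 it was -0.53 (limma, adjusted p = 0.291). Replicates 2 and 3 lay below 0 and replicate 1 at 0. CTR3, the other plasma membrane transporter gene, is kept silent by a transposon in several laboratory strains. It had a value in 3 of 6 scans, 0.64 in the high power scan of replicate 2, and 1.22 and -0.15 in the high and low power scans of replicate 3. The scans of replicate 3 thus lay on opposite sides of 0, which the close replicate values of 0.64 and 0.54 do not show.

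CTR2 encodes the transporter that releases copper from the vacuole. It read 0.16, 0.60 and 0.33 in replicates 1, 2 and 3, a mean of 0.36 ± 0.22 (SD, n = 3; limma, adjusted p = 0.574), and without replicate 1 the mean was 0.46 (limma, adjusted p = 0.342). All replicates lay above 0, although the high power scan of replicate 2 read -0.03 and the low power scan 1.22. The array section of CTR2 had a median below 0 in every replicate, with a mean of -0.48. After section-centring CTR2 read 0.63, 0.92 and 0.97, a mean of 0.84 ± 0.18 (SD, n = 3; limma, adjusted p = 0.150). CTR1 lay below CTR2 in all 3 replicates, with a difference of -0.70 ± 0.62 (SD, n = 3; exact 2-sided sign-flip permutation p = 0.25, 0.3 adjusted over the 6 pairs). After section-centring it was -1.31 ± 0.21 (SD, n = 3; exact permutation p = 0.25).

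On the delivery routes, CCC2 and ATX1 of the Golgi route had means above 0, and COX17 of the mitochondrial route had a mean below 0. CCC2 encodes the ATPase that pumps copper into the Golgi, where the iron oxidase Fet3 receives it, and it belongs with ATX1 to the genes that the iron regulator Aft1 activates. CCC2 read 1.86, 0.92 and 0.69 in replicates 1, 2 and 3, all above 0. The mean was 1.16 ± 0.62 (SD, n = 3), with a 95% interval of 0.35 to 1.96 and limma's adjusted p = 0.291, and it ranked 85th from the highest. Without replicate 1 the mean was 0.81 (limma, adjusted p = 0.134). The section of the array that holds this probe had medians of 0.91, 0.99 and 0.64, about as high as the gene in replicates 2 and 3 and well below it in replicate 1. After section-centring CCC2 read 0.95, -0.07 and 0.04, with a mean of 0.31 ± 0.56 (SD, n = 3; limma, adjusted p = 0.544).

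ATX1, the chaperone gene of the same route, read 1.42, 0.58 and -0.04 in replicates 1, 2 and 3. Its mean was 0.65 ± 0.73 (SD, n = 3; limma, adjusted p = 0.446), and without replicate 1 it was 0.27. Replicate 1 was the highest for CCC2 and for ATX1, and CCC2 exceeded ATX1 by 0.51 ± 0.20 (SD, n = 3; exact 2-sided sign-flip permutation p = 0.25, 0.3 adjusted over the 6 pairs). After section-centring the sign of that difference turned, to -0.09 ± 0.38 (SD, n = 3; exact permutation p = 1). COX17, whose product carries copper for cytochrome c oxidase, read 0.01, -0.66 and -1.08. Its mean was -0.58 ± 0.55 (SD, n = 3; limma, adjusted p = 0.451), and without replicate 1 it was -0.87 (limma, adjusted p = 0.124). The replicate 1 value of COX17 averaged -0.60 at high and 0.63 at low power, so that it rests on scans of opposite sign. CCC2 exceeded COX17 by 1.85, 1.58 and 1.77 in the 3 replicates, a mean of 1.73 ± 0.14 (SD, n = 3; exact permutation p = 0.25, 0.3 adjusted over the 6 pairs). After section-centring it was 1.04, 0.13 and 0.40, a mean of 0.52 ± 0.47 (SD, n = 3; exact permutation p = 0.25), so that the size was less and the replicates no longer lay close together. This pair, too, was chosen after its values were seen, which its p does not take into account.

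MAC1, the gene of the activator for copper scarcity, had no value in replicate 1. It read -1.13 in replicate 2 and 0.12 in replicate 3, and within each replicate its scans fell on the same side of 0. The replicates as deposited were thus of opposite sign, and their mean was -0.51 ± 0.88 (SD, n = 2; limma over genes in at least 2 replicates, adjusted p = 0.599). After section-centring both lay below 0, at -1.30 in replicate 2 and -0.16 in replicate 3, a mean of -0.73 ± 0.80 (SD, n = 2).

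**Figure D2:**
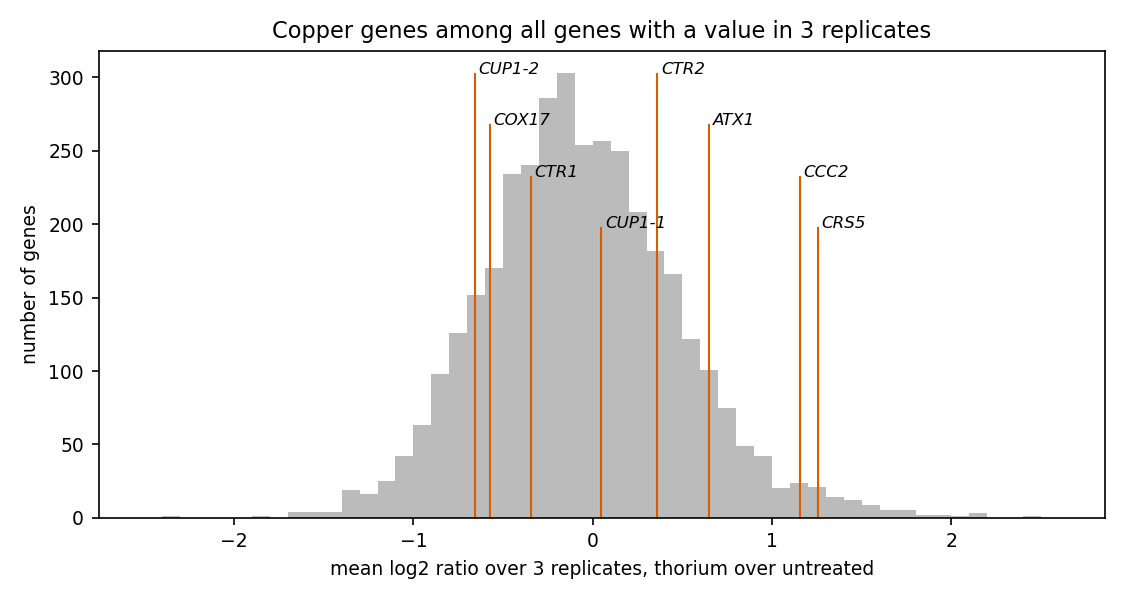
Histogram of the mean log2 ratio of 3613 genes with a value in all 3 replicates (horizontal axis) by number of genes (vertical axis), with an orange line at each of the 8 copper genes that had such a mean. CRS5 at 1.26 and CCC2 at 1.16 lie in the upper tail, and the other 6 lie between -0.66 and 0.65, within the bulk of the genes.

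Of the 8 genes with a value in all replicates, 5 had a mean above 0 and 3 below, where 43.5% of all genes tested had a mean above 0 and 56.5% one below. Their median was 0.20, against -0.09 for all genes. CUP1-1 and CUP1-2 are counted as separate genes in this and the counts below, although each probe can bind RNA of both. Above 0 in every replicate were 3 of the 8, CRS5, CTR2 and CCC2, against 15.4% of all genes, and 0 of 8 were below 0 in every replicate, against 23.2%. A mean of at least 1 was had by 2 of 8, CRS5 and CCC2, against 3.29% of all genes, and a mean of -1 or lower by 0 of 8, against 3.21%. The same 2 had an unadjusted p under 0.05 as higher, against 5.7%. No member passed after adjustment over all genes. These counts are of the values as deposited. After section-centring CRS5 and CTR2 stayed above 0 in every replicate and CUP1-1 joined them, at 0.34, 0.52 and 0.76. CCC2 left them, at 0.95, -0.07 and 0.04, and its mean fell to 0.31. CTR1 (-0.93, -0.29 and -0.21) and COX17 (-0.09, -0.20 and -0.36) were then below 0 in every replicate. In replicates 2 and 3 alone, where all 10 could be compared, 4 were above 0 in both (CRS5, CTR3, CTR2 and CCC2), against 32.3% of 4790 genes, and 3 were below 0 in both (CUP1-1, CTR1 and COX17), against 39.2%. Those shares are near the background.

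The targets of the copper regulators were then set side by side, as a grouping made after the values were seen and therefore given with no test. Mac1 is known to activate CTR1, CTR3, the reductase genes FRE1 and FRE7, and IRC7 and REE1. Of the 5 with a value in all replicates all had a mean below 0, against 56.5% of all genes. Below 0 in every replicate were 4 of them, against 23.2%. Their median was -0.77 against -0.09 for all genes. CTR3, the remaining target, lay above 0 in the replicates that measured it. It had a value in only 3 of 6 scans, and the low power scan of replicate 3 read -0.15. After section-centring the same count was 5 of 5 below 0 with a median of -0.56 (all genes -0.03), and with replicates 2 and 3 alone it was 5 of 6 with a median of -0.61 (all genes -0.06).

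FRE1, which encodes the main reductase for copper and iron at the cell surface, read -1.49, -1.91 and -1.51 in replicates 1, 2 and 3. All replicates were alike and far below 0, with a mean of -1.64 ± 0.24 (SD, n = 3; limma, adjusted p = 0.271), the fifth lowest of 3613 genes. Without replicate 1 FRE1 fell by 1.71 and passed (limma, adjusted p = 0.0498). IRC7, which encodes an enzyme that splits sulfur from cysteine, read -1.59, -2.27 and -1.05, a mean of -1.64 ± 0.61 (SD, n = 3; limma, adjusted p = 0.271), and ranked next to it, as the fourth lowest. Its 6 scans ran from -2.73 to -0.94, none near 0. Without replicate 1 the mean of IRC7 was -1.66 (limma, adjusted p = 0.0576).

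FRE7, a further metal reductase gene, read -0.92, -0.78 and -0.62, with a mean of -0.77 ± 0.15 (SD, n = 3; limma, adjusted p = 0.308). REE1, a gene whose protein is tied to the regulation of enolase, read -0.50, -0.27 and -0.17, with a mean of -0.31 ± 0.17 (SD, n = 3; limma, adjusted p = 0.617). Both genes were below 0 in all 6 scans, and without replicate 1 their means were -0.70 and -0.22 (limma, adjusted p = 0.172 and 0.653). The sections of the array that hold FRE1, FRE7 and IRC7 were themselves below 0, with mean medians of -0.64, -0.37 and -0.37. After section-centring the means were -1.001 ± 0.34 for FRE1, -1.26 ± 0.50 for IRC7, -0.41 ± 0.42 for FRE7 and -0.56 ± 0.42 for REE1 (SD, n = 3), and FRE7 then read 0.04 in replicate 3.

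**Figure D3:**
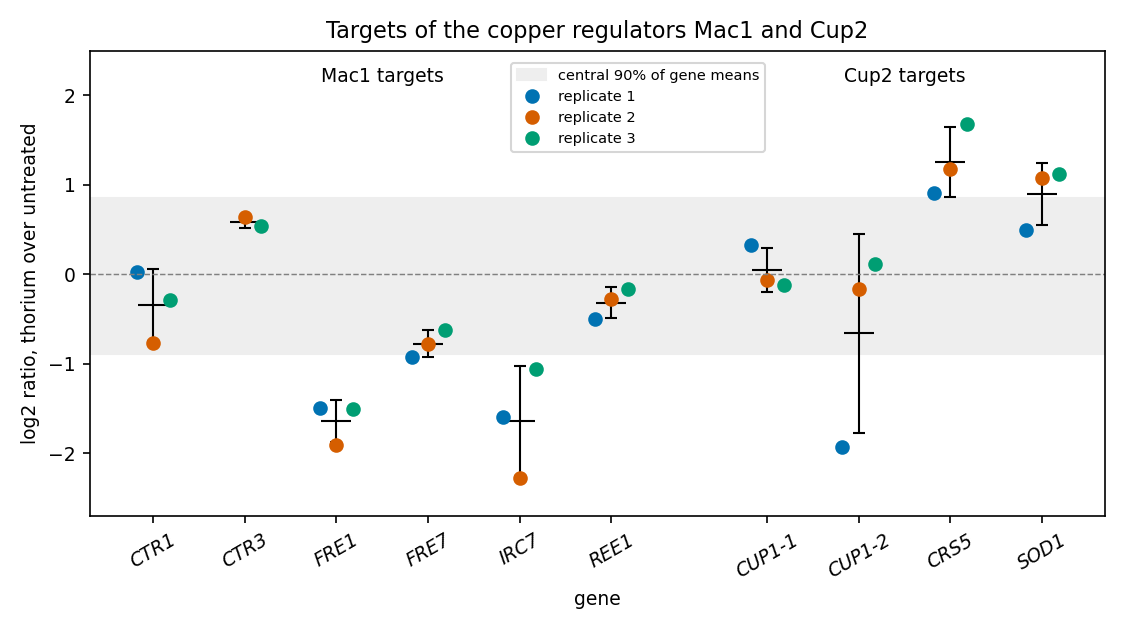
Log2 ratio of thorium over untreated (vertical axis) in each replicate (coloured points) for targets of Mac1 (left) and of Cup2 (right), with black bars for mean and SD and a grey band for the central 90% of gene means, from -0.89 to 0.86. FRE1 and IRC7 lie below the band with all replicates, and CTR3 lies above 0 in the replicates that measured it. The band is of means over replicates, whereas the points are single replicates. As deposited, CRS5 and SOD1 lie above 0 with all replicates while the CUP1 copies do not.

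Cup2 is known to activate CUP1-1, CUP1-2, CRS5 and SOD1. SOD1, the gene for the copper and zinc superoxide dismutase, read 0.49, 1.07 and 1.13 in replicates 1, 2 and 3. All 6 of its scans lay above 0, between 0.41 and 1.29, and the mean was 0.90 ± 0.35 (SD, n = 3; limma, adjusted p = 0.299). Without replicate 1 the mean was 1.10 (limma, adjusted p = 0.0766), and after section-centring it was 0.51 ± 0.37 (SD, n = 3). As deposited, CRS5 and SOD1 thus lay above 0 in every replicate, and CUP1-1 and CUP1-2 did not. After section-centring CUP1-1 lay above 0 in every replicate too, at 0.34, 0.52 and 0.76, where CRS5 read 0.22 in replicate 1. CUP1-2 then read -0.997, 0.35 and 0.72. The CUP1 copies are counted here as separate genes, although each probe can bind RNA of both. Of the 4 means as deposited 3 were above 0 and 1 below, where 43.5% of all genes had a mean above 0. Their median was 0.47 against -0.09 for all genes. After section-centring all 4 were above 0 with a median of 0.53 (all genes -0.03), and without replicate 1 they were 2 above and 2 below with a median of 0.54 (all genes -0.06). CUP2 itself, the gene of the activator, read 0.27, -1.55 and -1.02, a mean of -0.77 ± 0.93 (SD, n = 3; limma, adjusted p = 0.436), and without replicate 1 the mean was -1.28 (limma, adjusted p = 0.0628). Its array section moved the same way, with medians of 0.69, -1.18 and -0.65, and after section-centring CUP2 stood at -0.39 ± 0.03 (SD, n = 3).

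A wider list of 27 copper genes, for regulators, reductases, copper enzymes, copper delivery to cytochrome c oxidase, mitochondrial carriers and copper tolerance, had 26 with a probe and 21 with a value in all replicates. A further 3 (HAA1, SLF1 and VMA3) had values in replicates 2 and 3 alone. The 4 described Mac1-dependent or reductase genes, SOD1 and CUP2 belong to it. Of the 21, 7 had a mean above 0 and 14 below, with a median of -0.11 against -0.09 for all genes, and 0 passed over all genes. Below 0 in every replicate were 6 of 21, against 23.2% of all genes, and above 0 in every replicate were 2, against 15.4%. An unadjusted p under 0.05 was had by 3 as lower (FRE1, IRC7 and FRE7), against 8.11%, and by 2 as higher (SOD1 and COX19), against 5.7%.

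Copper delivery to cytochrome c oxidase had members on both sides of 0, with 3 of 7 above and 4 below and a median of 0.00. COX19, whose product acts with Cox11 in the insertion of copper into that enzyme, read 0.80, 1.87 and 0.22, with a mean of 0.96 ± 0.84 (SD, n = 3; limma, adjusted p = 0.347), and without replicate 1 the mean was 1.05 (limma, adjusted p = 0.151). Its section had a median of 1.18 in replicate 2, and after section-centring COX19 stood at 0.42 ± 0.45 (SD, n = 3). Among the copper enzymes and their loading factors 1 of 4 lay above 0, which was SOD1. CCS1, the chaperone gene for that enzyme, stood at -0.18 ± 0.28 and FET3, the copper-dependent iron oxidase gene that Ccc2 supplies, at -0.01 ± 0.51 (SD, n = 3), and without replicate 1 the means were -0.03 for CCS1 and -0.31 for FET3.

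MRS3, a mitochondrial carrier gene known for iron and copper import, read -0.49, -1.26 and -0.45, a mean of -0.73 ± 0.46 (SD, n = 3; limma, adjusted p = 0.361), and without replicate 1 the mean was -0.85 (limma, adjusted p = 0.141). After section-centring it stood at -0.17 ± 0.58 (SD, n = 3). CUP9, the gene of a repressor first linked to copper tolerance, read -0.39, 1.20 and 0.78, so that replicate 1 was opposite in sign to the others. Its mean was 0.53 ± 0.82 (SD, n = 3; limma, adjusted p = 0.544), and without replicate 1 it was 0.99 (limma, adjusted p = 0.0973). The section of CUP9 had a median of -1.28 in replicate 1. After section-centring CUP9 read 0.89, 1.02 and 0.17, all above 0, with a mean of 0.69 ± 0.46 (SD, n = 3).

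The position on the array moved with several of these values. A section is a set of 36 probes with the same leading digits of the probe number. This reading of the layout is inferred from the numbers. The median of a section was taken in each scan over its named probes with a value, where at least 5 had one. The mean section median was 0.85 for CCC2, a gene above 0, and -0.68 and -0.36 for CUP1-2 and COX17, genes below 0. It was -0.49 and -0.48 for CUP1-1 and CTR2, whose own means were above 0. Section-centring brought CUP1-1 to 0.54 ± 0.21 and CUP1-2 to 0.02 ± 0.90 (SD, n = 3), brought COX17 to -0.21 ± 0.14 and ATX1 to 0.39 ± 0.53, and CTR1 to -0.48 ± 0.39. CRS5 then stood at 1.04 ± 0.71 (SD, n = 3; limma, adjusted p = 0.170), reading 0.22, 1.48 and 1.42, so that the other 2 replicates carried it. The median of the 8 genes moved from 0.20 to 0.35.

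**Figure D4:**
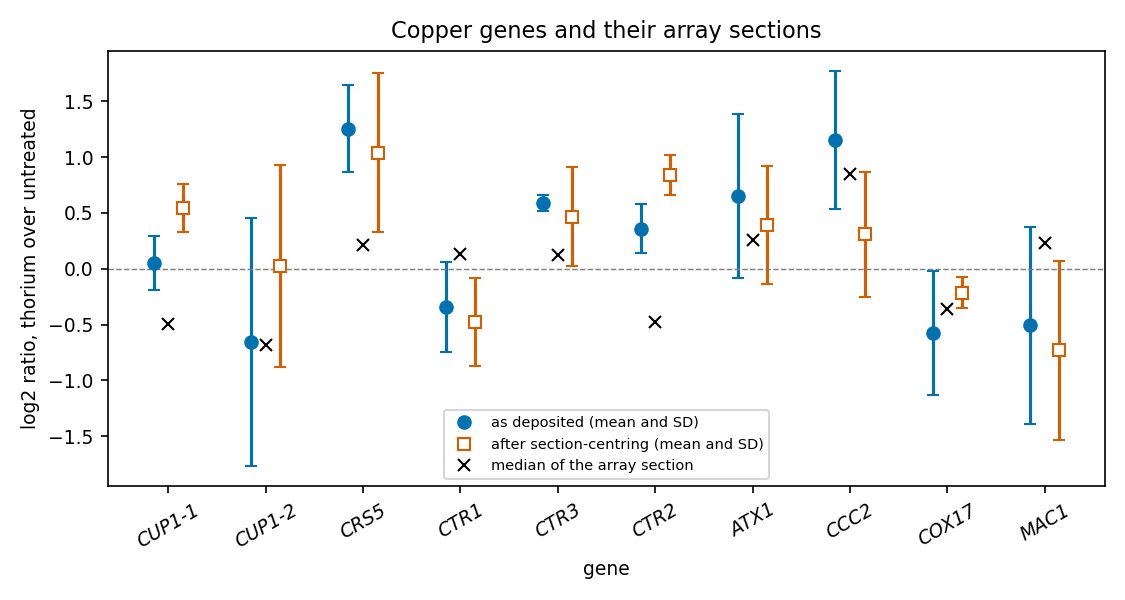
Mean log2 ratio of thorium over untreated (vertical axis) for the 10 genes (horizontal axis) as deposited (blue circles) and after section-centring (open orange squares), with SD over replicates (n = 3, and 2 for CTR3 and MAC1), and the mean section median (crosses). CCC2 moves from 1.16 to 0.31 and CTR2 from 0.36 to 0.84, while CRS5 stays above 1.

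The genes most like CRS5, the member with the mean farthest from 0, were found by the root mean square difference of log2 ratio over the 3 replicates among 3584 genes outside both lists. They were GDB1, the glycogen debranching enzyme gene, at a difference of 0.12, TDA7, a gene of poorly known function, at 0.17, and RAD16, a nucleotide excision repair gene, at 0.19. GDB1 read 0.91, 1.07 and 1.87 in replicates 1, 2 and 3. The median difference from CRS5 over all those genes was 1.49, and 0.921% of them lay within 0.5. Likeness over 3 points is a description of these arrays and says nothing about control.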

How the data were processed

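The deposited values are log2 ratios per probe and scan as read here. Unflagged spots were LOWESS-normalized by the authors, per the labels. The scanner, the software and any background step were not given in the sources used here. Since LOWESS sets the centre of every scan, shifts common to most genes are lost, and the medians of the scans lay between -0.16 and 0.01.

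Of 6912 probes, 5513 carried 1 gene name, 0 several and 1399 none in the platform annotation. Entrez IDs tied 5360 of 5365 genes to the RefSeq gene table of assembly R64. Probes were averaged per gene, then the scans of each replicate. The 3613 genes measured in every replicate were tested against 0 with limma 3.58.1 in R 4.3.3 (lmFit, eBayes, 2-sided, Benjamini-Hochberg over all genes, threshold 0.05), with 2 residual and 4.43 prior degrees of freedom. Tests of gene pairs were exact sign-flip permutations. The fit was also run on simulated normal values with independent replicates, no section effect and no replicate set apart. That setting differs from these arrays, so the run is no check of how the fit behaves on them.

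The members and lists were chosen with earlier results of these data known. All 10 members are named, with the 8 genes of the wider list farthest from 0 among those with a value in all replicates and the 3 genes most like the leading member. REE1, CCS1 and FET3 were named after their values were seen, as were the pairs of genes compared. Alternatives were each scan power, median-centring, quantile normalization, section-centring (a step known from earlier results), other filters on missing values, a replicate block over all 6 scans, array weights, a robust prior, a threshold of 0.1 and each replicate left out. No sequences of these genes or probes were used here, and no coordinates are given because no build is named.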

Additional observations from a re-analysis of the deposited data

How the results depend on the processing

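At an adjusted p under 0.05 no gene passed limma's test over the whole table under the other settings, except that leaving out a replicate gave between 0 and 77 genes, the 77 without replicate 1. A threshold of 0.1 was applied to the main fit alone, where 0 genes passed. Limma's smallest adjusted p was under 0.1 in the low power scans alone (0.0704), with a replicate block (0.0720) and with array weights (0.0670). The members' median of 0.20 was 0.0569 in the high power scans alone, -0.30 over the 3 members with all low power scans, -0.58 over the same 3 with both scans averaged, and 0.35 after section-centring. Leaving out a replicate gave 0.12 to 0.25, and all 6 scans with a replicate block gave 0.21. For the wider list's median of -0.11 no alternative moved it by more than the spread between replicates, and leaving out a replicate gave -0.26 to -0.22. CRS5 minus CUP1-1 ran from 0.91 to 1.52 and CRS5 minus CUP1-2 from 1.45 to 2.20 with a replicate left out, and neither could be had in the low power scans alone or over genes in all 6 scans, since CRS5 lacks a value there. CUP1-1 changed sign in the high power scans (-0.0571), with array weights (-0.0429) and without replicate 1 (-0.0902, against 0.132 without replicate 3), and CUP1-2 after section-centring (0.0243). The causes were not tested. CTR3 ran from -0.15 in the low power scan to 0.93 in the high power scans. CRS5 kept its sign in 11 of 11 alternatives, from 0.94 to 1.43, with limma's adjusted p from 0.0560 to 0.883, and CCC2 in 11 of 11, from 0.31 to 1.39. Every scan of both genes lay above 0 as deposited, so most of these alternatives could not have changed the sign. At the threshold of 0.05 FRE1 passed without replicate 1 (-1.71) and in no other alternative. The log2 change between the high and low power scans of one array exceeded 1 for 5.68%, 8.25% and 0.692% of genes in replicates 1, 2 and 3.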

Other observations

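The probes of CUP1-1 and CUP1-2 read apart in replicate 1 and close together in the others. The differences of log2 ratio, CUP1-1 minus CUP1-2, were 2.26, 0.10 and -0.24 in replicates 1, 2 and 3, with a mean of 0.71 ± 1.35 (SD, n = 3; exact 2-sided sign-flip permutation p = 0.75). After section-centring they were 1.33, 0.17 and 0.04, with a mean of 0.52 ± 0.71 (SD, n = 3; exact permutation p = 0.25, the smallest that 3 replicates allow). The cause was not tested.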
